A study of Mus musculus with 120 samples.

Results

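The MHC and antigen presentation genes were followed in single mouse group 2 innate lymphoid cells (ILC2). They were the protein-coding genes whose symbols begin with H2-K, H2-D, H2-Q, H2-T, H2-M, H2-A, H2-E or H2-O, together with B2m, Cd74, Tap1, Tap2, Tapbp, Tapbpl, Ciita, Nlrc5 and Erap1. These rules gave 43 of the 46078 genes in the count files: 24 class I heavy chains, 4 class II chains, 5 genes of class I peptide loading, 5 of class II peptide editing, and B2m, Cd74, Ciita, Nlrc5 and H2-Ke6. H2-Ke6, which encodes a hydroxysteroid dehydrogenase and only shares the symbol's beginning, had 51 reads in 6 cells and is not described further. In all, 22 members had a read in some cell and 21 had none.

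The study recovered single ILC2 at set times around the onset of cytokine secretion seen by live imaging, to ask which genes change as a cell becomes a secretor. The cells came from mesentery pooled from 20 wildtype C57BL/6 mice and were sorted as lineage-negative c-Kit+Sca-1+ cells. They were then kept in culture with IL-2 for months, and IL-33 was added together with IL-2 as the stimulus. One series of cells was timed by the secretion of IL-13 (IL-13 index) and another by that of IL-5 (IL-5 index). Within each index there were 5 cells before stimulation (pre-stimulation), 11 cells each at 30, 60 and 90 min after secretion began, 11 secreting cells recovered late in stimulation (activated) and 11 cells recovered without detected secretion (silent), 120 cells in 12 groups. All groups are labelled with the same wildtype strain, and the study cultured the sorted cells, so no group is an ILC2 taken directly from tissue. No label ties a cell to a mouse or a culture, so each group is treated as 1 sample. There is therefore no test between groups here, intervals cover counting error only, and the spread over cells is given in its place.

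MHC class I molecules are built from a heavy chain encoded in the H2 locus and the light chain beta-2-microglobulin (B2m), and carry peptides cut by the proteasome in the cytosol and pumped into the endoplasmic reticulum by the transporter Tap1-Tap2. Nearly all nucleated cells make them. MHC class II molecules pair an alpha and a beta chain (H2-Aa with H2-Ab1, and the E chains), are escorted by the invariant chain Cd74 and edited by the DM and DO proteins, and are made mainly by dendritic cells, macrophages and B cells under the transactivator Ciita. ILC2 have been described to carry class II molecules in some tissues, so both classes are followed here.

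The promoters of the leading members are shown because class I and class II genes share some control elements and not others. Each line holds the 250 bases before the gene's start in RefSeq on GRCm38.p6, read 5′ to 3′ on the gene's strand. Capitals mark 4 searched letter patterns: the kappa-B-like GGGNNTTCC, the interferon-response-like GAANNGAAA, the X2-box core TGACG and the Y-box core CCAAT, each on either strand. The 5 windows are chr17:34000348-34000597 on the minus strand (H2-K1), chr17:35262844-35263093 on the plus strand (H2-D1), chr17:35438905-35439154 on the plus strand (H2-Q7), chr2:122147437-122147686 on the plus strand (B2m) and chr17:34287824-34288073 on the minus strand (H2-Aa).
H2-K1: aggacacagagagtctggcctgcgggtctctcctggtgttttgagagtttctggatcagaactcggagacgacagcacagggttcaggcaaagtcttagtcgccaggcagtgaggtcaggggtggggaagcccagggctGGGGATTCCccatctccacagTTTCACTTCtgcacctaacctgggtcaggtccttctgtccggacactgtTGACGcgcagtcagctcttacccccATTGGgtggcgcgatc
H2-D1: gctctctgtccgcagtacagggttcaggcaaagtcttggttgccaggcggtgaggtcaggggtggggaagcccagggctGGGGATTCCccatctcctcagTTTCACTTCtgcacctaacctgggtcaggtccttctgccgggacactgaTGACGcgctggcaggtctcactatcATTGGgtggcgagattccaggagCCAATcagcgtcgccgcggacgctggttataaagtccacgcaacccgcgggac
H2-Q7: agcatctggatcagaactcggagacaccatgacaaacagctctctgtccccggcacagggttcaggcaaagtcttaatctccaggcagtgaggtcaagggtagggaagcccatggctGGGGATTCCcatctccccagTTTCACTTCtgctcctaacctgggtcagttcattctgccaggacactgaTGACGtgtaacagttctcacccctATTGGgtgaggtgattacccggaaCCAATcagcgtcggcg
B2m: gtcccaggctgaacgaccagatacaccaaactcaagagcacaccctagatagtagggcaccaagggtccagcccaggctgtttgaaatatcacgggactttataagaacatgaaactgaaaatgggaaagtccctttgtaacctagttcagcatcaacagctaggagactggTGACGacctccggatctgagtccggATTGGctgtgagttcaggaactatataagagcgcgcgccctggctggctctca
H2-Aa: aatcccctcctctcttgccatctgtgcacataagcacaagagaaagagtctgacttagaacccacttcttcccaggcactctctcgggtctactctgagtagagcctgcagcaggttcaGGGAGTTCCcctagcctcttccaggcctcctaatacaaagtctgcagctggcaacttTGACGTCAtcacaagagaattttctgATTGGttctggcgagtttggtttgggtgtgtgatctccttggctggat

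H2-K1, H2-D1 and H2-Q7 each held all 4 patterns in the same order, kappa-B-like first, the B2m window matched the X2 and Y cores, and the H2-Aa window had no interferon-response-like match. Each pattern was searched with 1 fixed spacing, and the B2m window holds a kappa-B-like and an interferon-response-like string with 1 more base between the fixed letters, so the lack of a match there depends on the letters searched. The matches lay at different distances from the start in the 3 heavy chains (the kappa-B-like match began at -111 in H2-K1, -171 in H2-D1 and -133 in H2-Q7). A promoter was found in the RefSeq table for 35 members. Among the 9 class I heavy chains that had a read and a promoter, 5 held the kappa-B-like pattern and 7 the interferon-response-like pattern. Among the 13 heavy chains with no read in any cell and a promoter, 1 and 1 did. Of all 27025 promoters, 4.88% held the kappa-B-like, 6.34% the interferon-response-like, 17.9% the X2 and 34.5% the Y pattern. The X2 core was present in 6 of the 9 and in 5 of the 13, and the Y core in 8 and in 11. A match is a string of letters and not a shown binding site, and the H2 genes arose by duplication, so their promoters are not independent of each other.

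Gene reads per cell had a median of 254001 and ranged from 65 to 785198, and 6 cells held fewer than 84667, the limit set for shallow cells. These 6 were kept in the summed values and left out of ranges over cells. The 11 ILC2 markers examined, among them Gata3, Il1rl1 and Ly6a, all reached 50 reads per 1000000 gene reads (CPM) in some group, and their summed level was 6274 to 13763 CPM over the 12 groups. The B cell markers Cd79a, Cd79b, Ms4a1 and Pax5 had 0 reads. The 6 dendritic cell markers summed to 0 to 77.6 CPM. Itgax, Clec9a and Siglech had 0 reads, Zbtb46 717 in 14 cells, Flt3 99 in 1 cell and Xcr1 3 in 3 cells. The 7 macrophage markers summed to 0 to 38.3 CPM. Lyz2, Csf1r, Fcgr1, C1qa and Itgam had 0 reads, Adgre1 143 in 1 cell and Cd68 101 in 2 cells. The 5 T cell markers summed to 0 to 78.8 CPM. Cd4 and Cd8a had 0 reads, Cd3d 228 in 4 cells, Trac 47 in 4 and Cd3e 9 in 3. The Flt3 reads were in an activated cell of the IL-13 index (replicate 10), which recurs below for H2-Q4 and Tapbp. The sample titles carry a date, which no label explains, and each index has its own dates, so index and title date cannot be told apart and no value is compared between indexes as a result. Pre-stimulation cells carry only the first title date of each index, so ratios of B2m and of the summed heavy chains to them are also given for that date alone.

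Class I was read in practically every cell and class II in practically none. B2m, H2-K1 and H2-D1 each had reads in 119 of the 120 cells, and the 24 heavy chains together held 167455 reads. The 4 class II chains together held 23 reads, all of H2-Ab1 and all in 1 cell. In cells thinned to 100000 gene reads each, which kept 113 cells, a class I heavy chain read was present in 100% (exact binomial 95% interval 96.8 to 100%) and a class II chain read in 0.885% (0.0224 to 4.83%). Without thinning the shares were 99.2% and 0.833% of 120 cells. In the IL-13 index 66718 class I heavy chain reads stood against 0 class II chain reads, which allows a ratio of at least 22239 at the 3 reads that a count of 0 allows, and of 7609.9 at the lower counting limit of a ratio to 3 reads. Among IL-5-indexed cells 100737 stood against 23, a ratio of 4379.9 (counting interval 2919 to 6909). Divided by exon length, the ratios were at least 15030.0 and 3880.1.

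**Figure D1:**
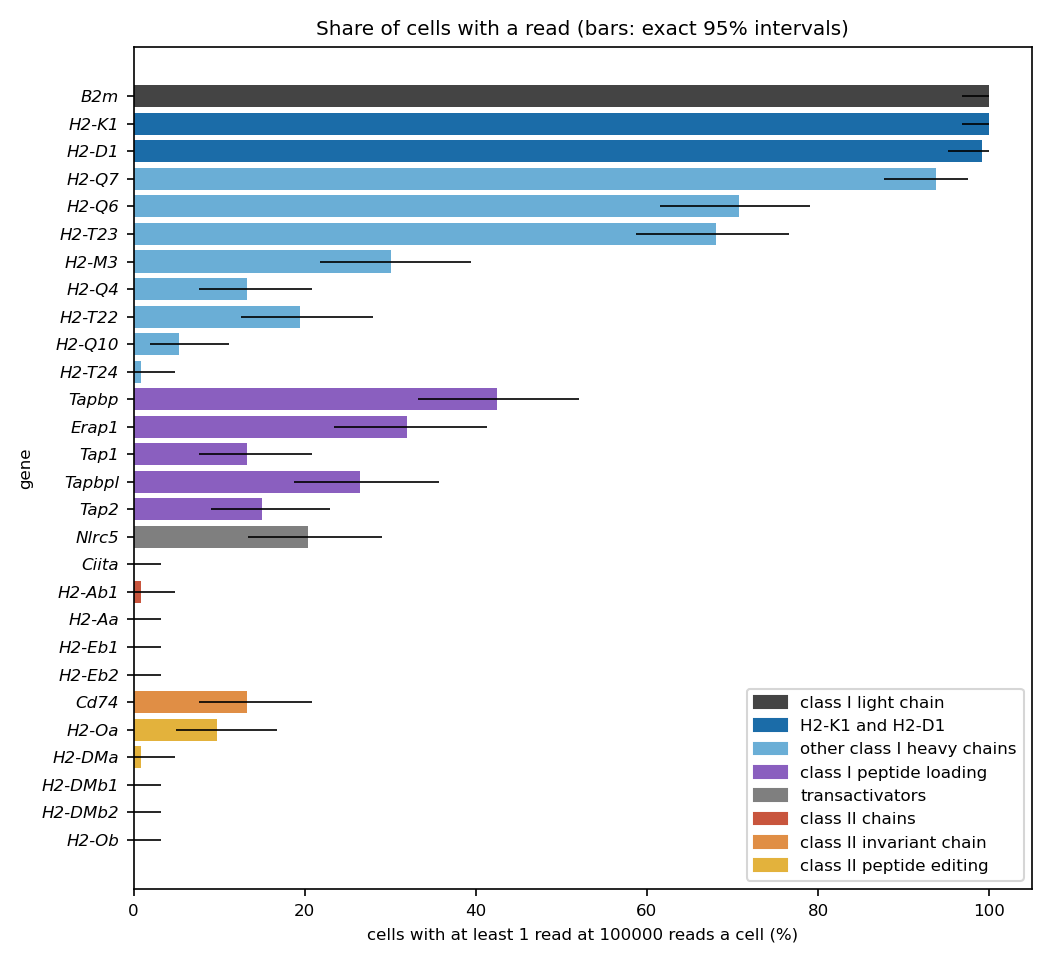
Share of cells with at least 1 read of each gene (horizontal axis, percent) after thinning 113 cells to 100000 gene reads, with exact binomial 95% intervals. Genes on the vertical axis are ordered by role; B2m and H2-K1 reach 100%, the class II chains are at 0% except H2-Ab1 at 0.885%.

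The light chain B2m had the smallest spread over cells of the 6 members for which it was computed. In the IL-13 index its level was 18775, 30004, 9743, 17533 and 22897 CPM in the 5 pre-stimulation cells. The lowest, median and highest of the 11 activated cells were 3545, 9201 and 20772 CPM, and of the 11 silent cells 8259, 15141 and 22961 CPM. The activated cells thus lay lower on the whole, but overlapped both other states. Summed over cells, B2m was at 19903 CPM before stimulation, 11715 at 30 min, 12188 at 60 min, 11119.9 at 90 min, 9568 in activated and 15106 in silent cells. The log2 ratio of activated to pre-stimulation was -1.06 (counting interval -1.08 to -1.03), and it lay between -1.20 and -0.89 when 1 cell was left out at a time. At 30 min it was -0.77 and in silent cells -0.40. Scaled by TMM factors, which centre the ratios of most genes, the activated value was -0.82 and no longer 2-fold. On the first date alone it was -1.07, and the 30 min and silent ratios were -0.81 and -0.315.

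In the IL-5 index B2m was at 11269, 12759.8, 13093, 15701 and 13207 CPM in the 5 pre-stimulation cells, a narrow range. The summed level was 13459 CPM before stimulation, 14245 at 30 min, 13032 at 60 min, 13307 at 90 min, 11861 in activated and 16448 in silent cells. The activated cells ranged from 5362 through a median of 10603 to 25045 CPM. The log2 ratio of activated to pre-stimulation was -0.18 and lay between -0.40 and -0.10 with 1 cell left out, so it stayed under 2-fold, and with TMM factors it turned to 0.29. On the first date alone it was -0.73. The ratios at 30 min and in silent cells, 0.08 and 0.29, changed sign on that date, to -0.33 and -0.04. Activated cells were below silent cells in both indexes, by log2 ratios of -0.66 (left-out range -0.78 to -0.57) for the IL-13 and -0.47 (-0.69 to -0.36) for the IL-5 index. On both title dates the difference had the same sign, at -0.75 and -0.61 for the IL-13 and -0.69 and -0.46 for the IL-5 index.

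**Figure D2:**
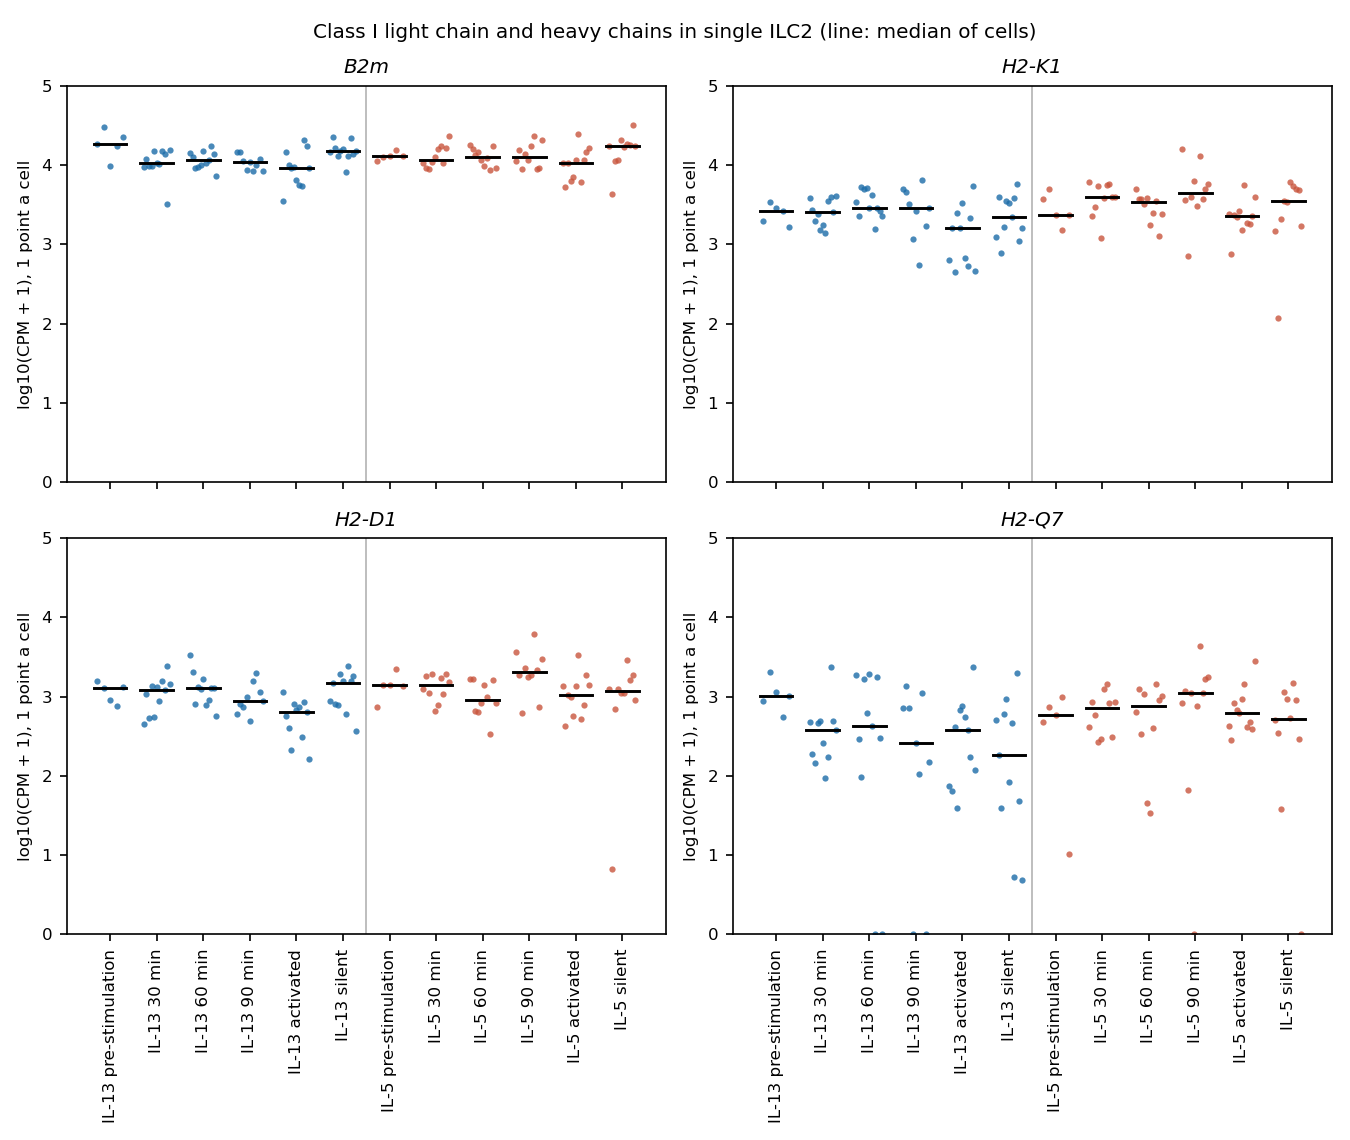
Levels of B2m, H2-K1, H2-D1 and H2-Q7 in single cells as log10(CPM + 1) (vertical axis) by group (horizontal axis), blue for the IL-13 and red for the IL-5 index, 1 point per cell and the black line at the median of the 114 cells with at least 84667 reads that fall in each group. B2m keeps to a narrow band, whereas H2-Q7 spreads from 0 to 4315 CPM.

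H2-K1 and H2-D1 are the classical heavy chains of this mouse strain, which present peptides to CD8 T cells. H2-K1 was at 1966, 3383, 2895.5, 2631 and 1676 CPM in the IL-13 pre-stimulation cells and at 3794, 5078.5, 2360.3, 1538 and 2358 CPM in the IL-5 ones. In activated IL-13-indexed cells it ran from 444 through a median of 1597 to 5409 CPM, and in silent cells from 779 through 2224.5 to 5792 CPM. The activated cells included the lowest values of that index, although 1 activated cell was above every pre-stimulation cell. The log2 ratio of activated to pre-stimulation was -0.60 in the IL-13 index (left-out range -0.89 to -0.43) and -0.21 in the IL-5 index, where leaving out 1 cell moved it from -0.44 to 0.18.

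H2-D1 was at 1548, 1274, 904.5, 752.5 and 1319.6 CPM in the IL-13 pre-stimulation cells. The 11 activated cells of that index lay between 159 and 1129 CPM with a median of 630.0 CPM, and the 11 silent cells between 367 and 2433 CPM with a median of 1474 CPM. Activated cells were thus lower than both other states on the whole, with overlap. The log2 ratio was -1.11 against pre-stimulation (left-out range -1.24 to -0.95) and -1.21 against silent cells (-1.34 to -1.04). Among IL-5-indexed cells the 5 pre-stimulation cells were at 735, 1393, 1401, 2196 and 1354 CPM, and the activated cells ran from 420.0 through 1053 to 3371 CPM. There the ratios were -0.19 against pre-stimulation and 0.02 against silent cells, and both changed sign when 1 cell was left out.

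Over all 24 heavy chains, the summed level in the IL-13 index was 5224 CPM before stimulation, 4985 at 30 min, 5472 at 60 min, 5177 at 90 min, 3065.5 in activated and 4975 in silent cells. The activated cells were the lowest of that index, at a log2 ratio of -0.77 against pre-stimulation (counting interval -0.82 to -0.72, left-out range -1.04 to -0.59) and -0.70 against silent cells (-0.96 to -0.47). On the 2 title dates the latter was -0.60 and -0.70, and the former was -1.09 on the first date. In the IL-5 index the level was 5619.6 CPM before stimulation, 6420.0 at 30 min, 5251 at 60 min, 9399 at 90 min, 5043 in activated and 5600.5 in silent cells. The activated cells of that index were at -0.16 against pre-stimulation and -0.15 against silent cells, and the second changed sign with 1 cell left out (-0.39 to 0.05). The first was -0.55 on the first date alone. The cytokine genes Il9, Il13, Il5 and Csf2 took 5.94% of the reads of activated cells for the IL-13 and 7.65% for the IL-5 index, against at most 1.9% in any other group. With those reads out of the total, the ratios of activated to pre-stimulation were -0.68 and -0.04. With TMM factors they were -0.53 and 0.32, so the direction in the IL-5 index depended on the scaling.

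**Figure D3:**
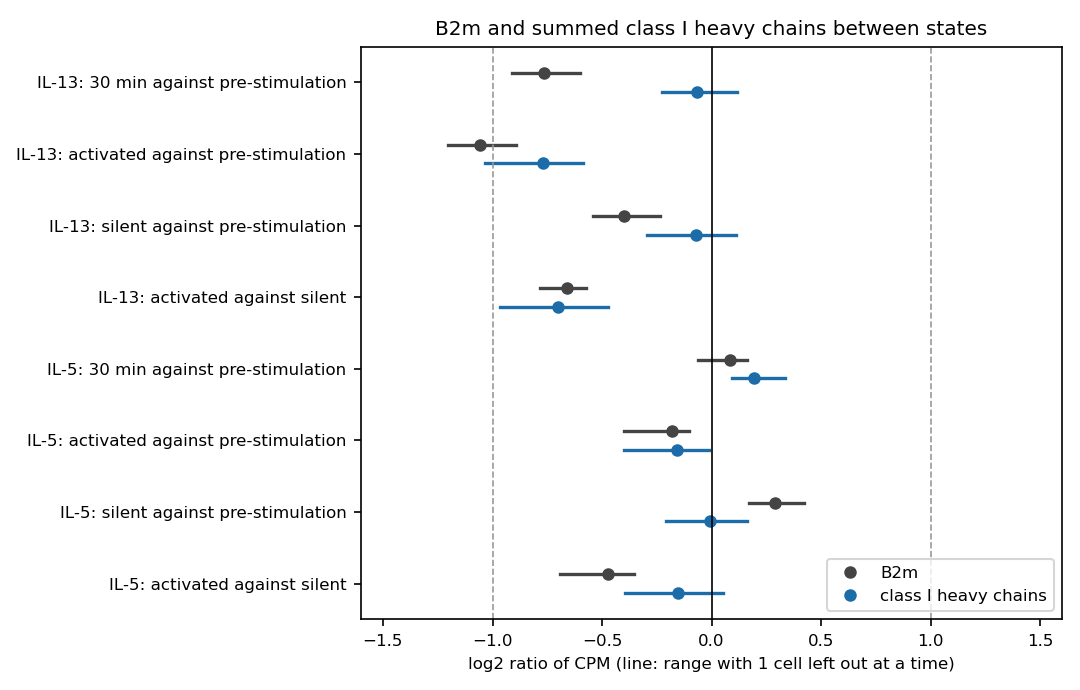
Log2 ratio of CPM (horizontal axis) for B2m (grey) and the summed class I heavy chains (blue) in each comparison of states (vertical axis); points are the values over all cells, lines the range with 1 cell left out at a time, dashed lines a 2-fold difference. Among IL-13-indexed cells both are lower in activated cells than before stimulation, at -1.06 and -0.77.

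The 90 min cells of the IL-5 index held the highest class I heavy chain level of that index. Against the 60 min cells the log2 ratio was 0.84 (counting interval 0.81 to 0.87, left-out range 0.66 to 0.97), with 1.03 for H2-D1, 0.83 for H2-K1 and 0.73 for H2-Q7, while B2m was at 0.03. H2-Q7 differed in sign between the dates (-0.14 and 1.14). The cells of the 60 min group ran from 3773 through a median of 5173 to 8202 CPM and those of the 90 min group from 1733 through 7704 to 24933 CPM. The 90 min cells therefore spread both above and below the earlier ones, with 2 cells (replicates 1 and 7) at 22641 and 24933 CPM and 4 of the 10 deeper cells above every cell at 60 min. On the 2 title dates the ratio was 0.51 and 1.14. The 90 min cells were shallower, with a median of 184079 gene reads against 312467 at 60 min, and the part of depth in this difference was not tested. In the IL-13 index the same step was -0.08, with 1 cell left out -0.37 to 0.01. These time steps were chosen after their values were seen.

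Heavy chain reads per B2m read describe the balance of both chains within a cell, where the total of the library drops out. Among IL-13-indexed cells the ratio was 0.262 before stimulation, 0.426 at 30 min, 0.449 at 60 min, 0.469 and 0.464 on the single dates at 90 min, 0.32 in activated and 0.329 in silent cells. The 5 pre-stimulation cells lay between 0.178 and 0.556 with a median of 0.264, and the 11 cells at 60 min between 0.224 and 0.857 with a median of 0.463. The groups overlapped, and leaving out 1 cell moved the pre-stimulation value from 0.236 to 0.292 and the 60 min value from 0.431 to 0.476. In the IL-5 index it was 0.418 before stimulation, 0.451, 0.403 and 0.706 at 30, 60 and 90 min, 0.425 in activated and 0.34 in silent cells. The value at 90 min was 0.717 on the first date and 0.698 on the second. At 30 min these were 0.521 and 0.416, at 60 min 0.424 and 0.382, in activated cells 0.473 and 0.406 and in silent cells 0.28 and 0.384. The ratio exceeded 1 in 4 of the 114 deeper cells, 2 of them in the 90 min group of the IL-5 index.

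**Figure D4:**
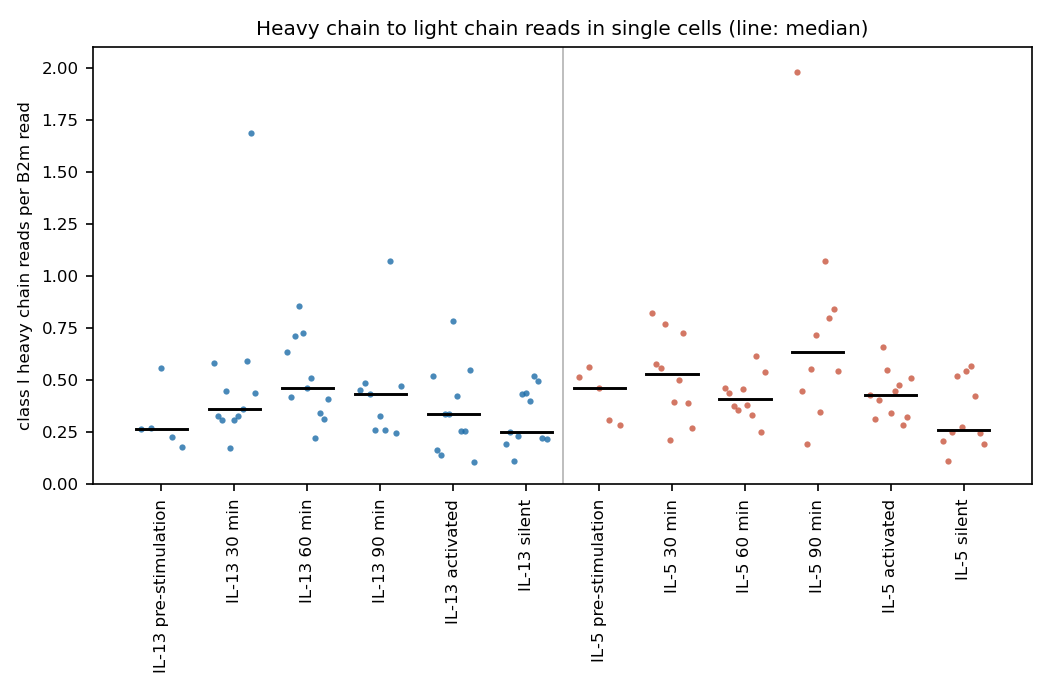
Class I heavy chain reads per B2m read (vertical axis) in each of the 114 deeper cells by group (horizontal axis), blue for the IL-13 and red for the IL-5 index, with the median of each group as a line. The median is 0.264 in IL-13 pre-stimulation cells and 0.635 in IL-5 cells at 90 min.

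H2-Q7 and H2-Q6 encode non-classical class I molecules of the Qa-2 group. H2-Q7 had reads in 112 cells. Before stimulation it was at 873.5, 2062, 1135, 545 and 1000.1 CPM for the IL-13 and at 472, 731, 578, 972 and 9.34 CPM for the IL-5 index, so 1 of the 10 cells was almost without it. Among IL-13-indexed cells the summed level was 1097 CPM before stimulation and 581 at 30 min, 470.4 in activated and 441 in silent cells, log2 ratios of -0.92, -1.22 and -1.31. A single cell held 54.7% of the H2-Q7 reads at 30 min (replicate 9) and 49.1% in the silent group (replicate 9), and without them the ratios were -1.85 and -2.12. Without pre-stimulation replicate 2 the ratios at 30 min, in activated and in silent cells were smaller, at -0.62, -0.92 and -1.02. In the IL-5 index H2-Q7 stayed between 599.7 and 1116 CPM in the 6 groups.

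H2-Q6 had reads in 90 cells. Its 2-fold differences rested on few cells: in the IL-5 index 1 pre-stimulation cell (replicate 3) was at 1412 CPM and held 82.9% of that group's H2-Q6 reads. With it, activated cells were at a log2 ratio of -2.20 against pre-stimulation, and without it at -0.002. A stretch of 91 bases, the length of a read, within the last 500 bases of H2-Q6 was shared with other transcripts in 10.5% of positions. For H2-Q7, H2-K1, H2-D1 and B2m it was 0%. The search took exact matches on the transcript's strand, so it does not cover reads with mismatches or genes on the opposite strand. H2-T23, which encodes Qa-1, a ligand of the inhibitory receptor CD94-NKG2A, had reads in 88 cells, and 12.9% of its end positions are shared. Among IL-5-indexed cells it was at 23.9 CPM before stimulation, 68.1 at 30 min, 125 at 60 min, 218 at 90 min, 106 in activated and 95.6 in silent cells. Of the 5 pre-stimulation cells 2 had a read, and 93.1% of those reads were in 1 cell (replicate 4), so without it the ratio of activated to pre-stimulation went from 2.15 to 5.03. In the activated group 64% of the reads were in replicate 7, and without that cell the ratio was 0.85. In the IL-13 index H2-T23 lay between 50.4 and 94.3 CPM in the 6 groups.

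The remaining heavy chains were read in few cells, H2-M3, which presents formylated peptides, in 36, H2-T22 in 25, H2-Q4 in 19, H2-Q10 in 16 and H2-T24 in 1. H2-Q4 made up 1.01% of the class I heavy chain reads of the IL-13 index and 0.143% of those of the IL-5 index. Of its 819 reads 233 were in 1 activated cell of the IL-13 index (replicate 10), at 1012 CPM, and without it the log2 ratio of activated to pre-stimulation went from 1.10 to -5.08. H2-T22 shares 25.9% of its end positions with H2-T10, so its counts are uncertain. It was at 154 CPM in IL-13 pre-stimulation cells, 69.6% of it in 1 cell, and at 0.374 to 15.1 CPM in the other groups of that index, while all 5 IL-5 pre-stimulation cells had 0 reads. The 14 heavy chains with 0 reads (H2-Q1, H2-Q2, H2-T3 and 11 of the H2-M genes) could have reached at most 0.0967 CPM over all cells together, the level of 3 reads.

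Spread over cells was set beside that of other genes at a like level. Within groups the SD of log2(CPM + 1) over the 114 deeper cells was 0.55 for B2m, 0.97 for H2-K1, 1.04 for H2-D1, 2.64 for H2-Q7, 3.62 for H2-Q6 and 3.02 for H2-T23. Genes within 2-fold of the same mean had median SDs of 1.08 (5 genes near B2m), 0.85 (87 genes near H2-K1), 1.8 (228 genes near H2-D1), 2.61 (357 genes near H2-Q7), 3.51 (970 genes near H2-Q6) and 3.35 (1907 genes near H2-T23). H2-Q7 and H2-Q6 were thus spread about as widely as other genes of their level. B2m had a lower SD than each of its 5 neighbours, H2-D1 a lower one than all but 42 of 228, and H2-K1 sat in the middle. Across these cells, with groups centred, Pearson's r was 0.44 between B2m and H2-K1, 0.45 between B2m and H2-D1 and 0.53 between H2-K1 and H2-D1. It was 0.31 between H2-K1 and H2-Q7, 0.34 between H2-K1 and H2-T23, 0.16 between H2-D1 and H2-Q7 and -0.07 between H2-Q6 and H2-Q7. These values describe 114 cells that share libraries and differ in depth.

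Peptide loading genes were read at lower levels and in fewer cells than the chains they serve. After thinning, Tapbp (tapasin, which holds class I molecules at the transporter) had a read in 42.5% of 113 cells, Erap1 (which trims peptides in the endoplasmic reticulum) in 31.9%, Tapbpl in 26.5%, Tap2 in 15% and Tap1 in 13.3%. Summed over the 5 genes, the level was 528 CPM before stimulation, 193.5 at 30 min, 240.2 in activated and 83.5 in silent IL-13-indexed cells, and 306, 258, 197 and 80.6 CPM in those of the IL-5 index. Silent cells were thus the lowest of these groups in both indexes. Against silent cells, activated cells were higher by a log2 ratio of 1.52 (left-out range 0.85 to 2.28) for the IL-13 and 1.29 (0.98 to 1.78) for the IL-5 index, and on the single dates by 1.73, 1.37, 1.90 and 0.77. Different genes made up the difference. For the IL-13 index Tapbp was at 175 CPM in activated and 30.2 CPM in silent cells, a log2 ratio of 2.53 that was 1.41 without the activated cell with 57.4% of that group's reads (replicate 10). Tapbpl and Tap1 were at 31.6 and 16.9 CPM in activated cells, with 60.4% and 100% of the reads in 1 cell, and had 0 reads in silent ones. Erap1 was at 14.4 and 41.6 CPM there, but 96.4% of the silent reads were in 1 cell (replicate 7), and without it the log2 ratio went from -1.53 to 3.07.

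For the IL-5 index Erap1 was at 80.9 CPM in activated and 5.22 CPM in silent cells, where 1 cell held all its reads, and the log2 ratio of 3.96 lay between 2.92 and 6.26 with 1 cell left out. Tap1 was at 42.3 against 6.52 CPM, a ratio of 2.70 (left-out range 1.95 to 5.35), with 95% of the silent reads in 1 cell. Tapbp was at 48.5 and 40.1 CPM, and its ratio of 0.27 went to -2.20 without the activated cell that held 84% of the reads (replicate 7). Tapbpl was lower in activated cells, at 14.7 against 28.7 CPM. The sums thus rest on few cells for each gene.

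The loading genes also showed how far single cells carried a group's value. In IL-13 pre-stimulation cells 66.1% of the Tapbp reads were in 1 cell (replicate 4), and without it the ratio of activated to pre-stimulation, -1.19, was 0.10. Tap1 had 187 reads in 3 of the 5 IL-5 pre-stimulation cells and none in the IL-5 cells at 30 min, where 3 reads would be 0.845 CPM. In activated IL-5 cells it had 158 reads in 5 of 11 cells. In the IL-13 index Tap1 was read in 1 cell before stimulation, 2 at 30 min, 1 at 60 min, 1 activated, and in no cell at 90 min or silent. Tap1 overlaps Psmb9 on the opposite strand, and whether the counting used strand is not given, so reads of the pair could be mixed where they overlap. The same holds for Erap1, which overlaps Cast on the opposite strand, Tapbpl (Vamp1), B2m (Patl2), Tapbp (Gm19412, and Zbtb22 on its own strand), H2-Q4 (Gm11131), and H2-T22 and H2-T23 (A930015D03Rik).

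Nlrc5, the transactivator of class I genes, had 982 reads in 25 cells, between 0 and 93.3 CPM in the 12 groups. It had no read in the activated cells of the IL-13 index or the 60 min cells of the IL-5 index. In other groups few cells held it, such as 3 silent IL-13 cells, with 63.6% of the reads in replicate 6, and 1 silent IL-5 cell. Whether its level goes with that of class I was not tested. Ciita, the transactivator of class II genes, had 0 reads in all 120 cells.

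**Figure D5:**
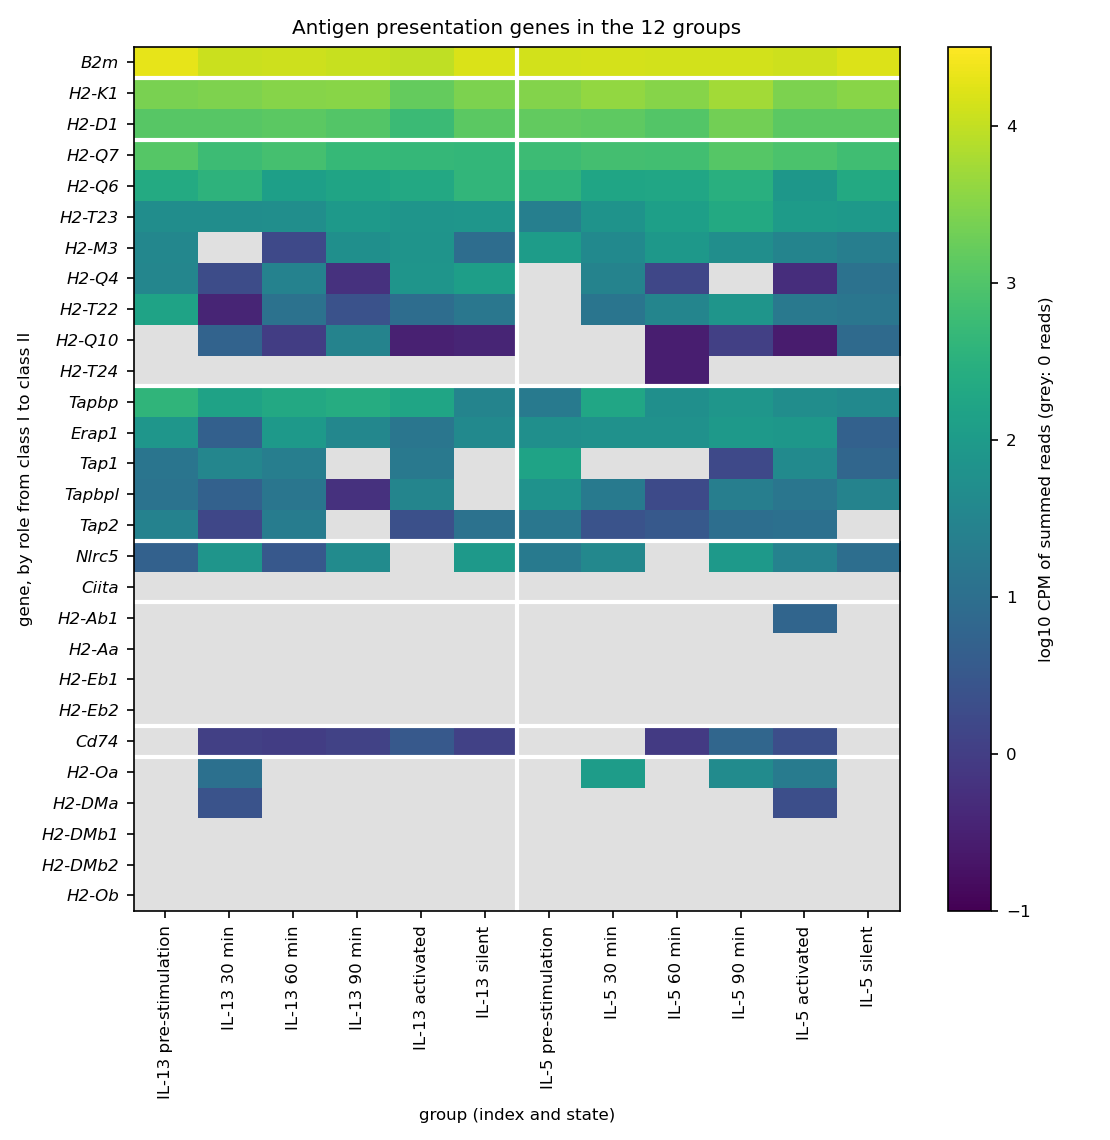
Summed level of antigen presentation genes (rows, ordered by role) in the 12 groups (columns) as log10 CPM, grey for 0 reads. B2m, H2-K1, H2-D1 and H2-Q7 are read in all 12 groups, whereas Ciita, H2-Aa, H2-Eb1 and H2-Eb2 are grey throughout.

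Among the class II genes, H2-Aa, H2-Eb1, H2-Eb2, H2-DMb1, H2-DMb2 and H2-Ob had 0 reads. Per group, 3 reads correspond to 0.804 to 3.11 CPM. The 23 H2-Ab1 reads were in 1 activated cell of the IL-5 index (replicate 9), at 76.9 CPM, which also held 8 H2-DMa reads and 1 Cd74 read. H2-DMa overlaps Brd2 and other genes on the opposite strand and CR974462.3 on its own, so its counts are uncertain. That cell had 0 reads of Itgax, Flt3, Adgre1 and Cd68, and had 184 CPM of Gata3 and 612 CPM of Il1rl1, markers of ILC2. Without that cell the class II chains had 0 reads in all groups. Against the 3 reads that a count of 0 allows in each group, activated IL-5 cells were at least 2.49-fold above pre-stimulation cells and at least 6.30-fold above silent cells, both from that single cell. The lower counting limits of these log2 ratios, which take in the error of the 23 reads, were 0.90 and 2.24.

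Cd74, the invariant chain, had 45 reads in 21 cells, and 18 of the 21 had 1 to 3 reads. The most reads in a cell were 6, and the highest level was 27.1 CPM, in a cell at 90 min of the IL-5 index. After thinning, 13.3% of 113 cells had a read (exact binomial 95% interval 7.62 to 20.9%) and without thinning 17.5% of 120. Over the groups it was at 0 to 6.56 CPM, with 7 of the 11 activated IL-13 cells holding 11 reads in all. These cells do not include a cell type that lacks Cd74 to give a background level, and no test between groups was made. The level at 90 min of the IL-5 index, 6.56 CPM (counting interval 3.39 to 11.5), rests on 12 reads in 4 cells, beside 0 reads in the silent and 30 min cells of that index (0 to 1.20 and 0 to 1.04 CPM). H2-Oa, the alpha chain of the DO protein, which restrains peptide exchange on class II, had more reads than the class II chains themselves, 582 in 13 cells. Of these, 398 were in 4 IL-5 cells at 30 min, 84 in 3 cells at 90 min, 71 in 5 activated IL-5 cells and 29 in 1 IL-13 cell at 30 min, and the other 8 groups had 0. Its DO partner H2-Ob had 0 reads. H2-Oa overlaps BC051537 on the opposite strand, so its counts are uncertain.

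The members are set beside all genes here, with the share of all genes called the same way after each count. A member was called higher or lower where its mean over the 2 groups was at least 50 CPM and its difference at least 2-fold. Among IL-13-indexed cells at 30 min against pre-stimulation, 0 of 8 members were higher, beside 25.7% of all genes, and 2 were lower (Tapbp and H2-T22), beside 30.7%. In activated against pre-stimulation cells 1 of 10 was higher (H2-Q4), beside 26.9%, and 5 were lower (B2m, H2-D1, H2-Q7, H2-T22 and Tapbp), beside 33.6%. In silent against pre-stimulation cells 1 of 10 was higher (H2-Q4), beside 28.8%, and 3 were lower (H2-Q7, H2-T22 and Tapbp), beside 25.3%. In activated against silent cells 1 of 8 was higher (Tapbp), beside 17.5%, and 1 lower (H2-D1), beside 27.4%. Both limits were applied again with 1 cell left out at a time, and 4 of the 14 calls of this index held throughout: H2-Q7 and Tapbp in silent against pre-stimulation cells, and Tapbp and H2-D1 in activated against silent cells. The other 10 ended without some 1 cell. The 3 of H2-T22 did so without pre-stimulation replicate 2, where the ratios stayed over 2-fold but the mean was 28.5 to 35.8 CPM. On the first title date alone H2-Q4 had the opposite sign, at -3.84 in activated and -3.38 in silent against pre-stimulation cells, and H2-D1 was under 2-fold, at -0.97 against pre-stimulation and -0.84 against silent cells.

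In the IL-5 index at 30 min 2 of 10 were higher (Tapbp and H2-Oa), beside 26.3%, and 3 were lower (H2-Q6, H2-M3 and Tap1), beside 30.2%. In activated against pre-stimulation cells 1 of 9 was higher (H2-T23), beside 25.6%, and 3 were lower (again H2-Q6, H2-M3 and Tap1), beside 35.7%. In silent against pre-stimulation cells 1 of 8 was higher (H2-T23), beside 24.8%, and 2 were lower (H2-M3 and Tap1), beside 31.6%. In activated against silent cells 0 of 6 were higher, beside 13.0%, and 1 was lower (H2-Q6), beside 17.5%. Of the 13 calls of this index, that of Tapbp at 30 min held with any 1 cell left out, and the other 12 ended without some 1 cell. For H2-Oa and Tap1 at 30 min, and for H2-T23, H2-M3 and Tap1 in silent cells, the ratio stayed over 2-fold and the mean went under 50 CPM. On the first title date alone H2-T23 in silent cells was at 0.61, H2-M3 and H2-Q6 at 30 min were at -0.88 and -0.28, and H2-Q6 in activated against silent cells was at 0.04, all under 2-fold. The comparisons with pre-stimulation share those 5 cells in each index. The median log2 ratio of the members was below that of all genes in activated IL-13 cells, at -0.83 against -0.15 over pre-stimulation, and near it in activated IL-5 cells, at -0.19 against -0.32.

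Other genes of the class I pathway were examined from lists by role. The proteasome activator genes Psme1 and Psme2 were higher in activated than in pre-stimulation cells in both indexes. Psme2 was at 812 CPM before stimulation and 2545 CPM in activated IL-13-indexed cells, a log2 ratio of 1.65 (left-out range 1.38 to 2.07), and at 847 and 2414 CPM in the IL-5 index, a ratio of 1.51 (1.32 to 1.77). Over single cells of the IL-5 index it ran from 285 to 1352 CPM before stimulation and from 944 to 3803 CPM in activated cells. Psme1 had ratios of 1.56 and 1.41. Silent cells were also above pre-stimulation cells. Psme1 was at 1586 CPM in silent and 1428 CPM in activated IL-13-indexed cells, against 485 CPM before stimulation, and at 1163 and 1608 CPM against 607 CPM in the IL-5 index. Psme2 was at 1447 CPM in silent IL-13-indexed and 1869 CPM in silent IL-5-indexed cells. The immunoproteasome subunit Psmb9 was lower, at 239.5 and 34.45 CPM in the IL-13 index (-2.80, left-out range -3.56 to -2.22) and 169 and 11.25 CPM in the IL-5 index (-3.91, left-out range -7.53 to -2.83). It was read in 4 of 5 pre-stimulation cells of either index, and in 3 and 1 of 11 activated cells. Of the 5 immunoproteasome genes, 2 were at least 2-fold higher and 2 at least 2-fold lower in activated than in pre-stimulation cells in each index, beside 26.9% and 33.6% of all genes (IL-13) and 25.6% and 35.7% (IL-5). The lower call of Psmb8 for the IL-13 index, at a ratio of -1.29, ended without 1 cell (left-out range -1.56 to -0.32), as did the lower calls of Psmb10 (-1.06, left-out range -1.34 to -0.72) and Psmb9 for the IL-5 index, the latter through a mean of 45.7 CPM.

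The folding chaperones of class I were at least 2-fold higher in activated than in pre-stimulation cells for 2 of 3 genes for the IL-13 and 3 of 3 for the IL-5 index, beside 26.9% and 25.6% of all genes. Calr (calreticulin) was at 58.1 CPM before stimulation and 638 CPM in activated IL-13-indexed cells, a log2 ratio of 3.46 (left-out range 3.14 to 4.09), and at 81.7 and 510 CPM in the IL-5 index, 2.64 (2.36 to 3.12). In the IL-5 index the lowest of the 11 activated cells, at 161 CPM, was only slightly above the highest of the 5 pre-stimulation cells. The median of those 5 cells was 97.5 CPM. These groups thus did not overlap, but by a narrow gap. Calr had the largest ratio of its list, and the share of all genes without overlap is not given here, so the lack of overlap is not set against other genes. In the IL-13 index the activated and pre-stimulation cells overlapped. Silent cells were between both, at 195 and 250.2 CPM. Canx (calnexin) had ratios of 2.50 and 1.24, and was read in 1 and 2 of the 5 pre-stimulation cells, and the left-out ranges were 2.13 to 6.32 and 0.82 to 6.27, so the difference fell under 2-fold without 1 cell in the IL-5 index. In silent cells Canx was at 257 CPM for the IL-13 and 334 CPM for the IL-5 index, the latter above the 232 CPM of activated cells. Pdia3 had 0.06 and 2.15, the second being 0.44 on the first title date alone. In silent IL-13-indexed cells Pdia3 was lower, at 26.45 against 112.0 CPM before stimulation. This ratio of -2.08 stayed past 2-fold with any 1 cell left out, while that at 30 min, -1.50, did not. In the IL-5 index silent cells were at 76.7 and pre-stimulation cells at 39.6 CPM. These chaperones fold many secreted and membrane proteins besides class I.

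Genes of interferon-gamma signalling were examined because this cytokine raises class I and class II expression in many cells. Of the 10 examined, 6 reached 50 CPM over activated and pre-stimulation cells in the IL-13 index, with 1 higher and 3 lower by at least 2-fold, and 4 in the IL-5 index, with 0 higher and 1 lower, beside 26.9% and 33.6% of all genes (IL-13) and 25.6% and 35.7% (IL-5). Socs1, a feedback inhibitor, was at -1.24 and -1.82 in activated cells, with left-out ranges of -2.28 to -0.55 and -2.59 to -0.72, so either difference fell under 2-fold without 1 cell. Jak2, a kinase of the receptor, was at 16.6 CPM before stimulation and 145 CPM in activated IL-13-indexed cells (left-out range 2.76 to 5.11), and at 133 and 152 CPM in IL-5-indexed ones (left-out range -0.21 to 5.52), where 1 of the 5 pre-stimulation cells held all its reads. Jak1, its partner kinase, was read in 10 and 11 of the 11 activated cells, at 210.4 and 294.5 CPM, with ratios of -0.28 and 0.38. Ifngr1 was at -4.14 in the IL-13 index, from 1 pre-stimulation cell, and 1.84 without that cell. Irf9, a partner of the Stat factors, was at -4.89 there and 0.13 without pre-stimulation replicate 5, so each of the 3 lower calls ended without some 1 cell. None of the 12 interferon-response genes reached 50 CPM over activated and pre-stimulation cells in either index, and nor did the 4 class I-like genes outside the H2 locus. Other comparisons held calls. Irf8, an interferon-regulatory factor of the signalling list, had 0 reads in IL-5 pre-stimulation cells and was at 351 CPM at 30 min, a call that held with any 1 cell left out, while it was at 1.34 CPM in activated and 10.4 CPM in silent cells. The interferon-induced GTPase genes Gbp4, at 10.4 CPM before stimulation and 98.6 CPM in silent IL-13-indexed cells, and Gbp2, at 21.4 CPM before stimulation and 82.2 CPM at 30 min in the IL-5 index, were called higher, and both calls ended without some 1 cell. Among the 6 genes of endosomal processing for class II, the protease gene Ctsd was at 404 and 204 CPM before stimulation and in activated IL-13-indexed cells (-0.99) and at 544.5 and 207 CPM in the IL-5 index (-1.39), while Ctsb had ratios of 0.15 and 1.29. Of this list 2 genes reached 50 CPM in each index, with 0 called for the IL-13 index and 1 higher (Ctsb) and 1 lower (Ctsd) for the IL-5 index, beside 25.6% and 35.7% of all genes, and both fell under 2-fold without 1 cell (left-out ranges 0.86 to 4.51 and -1.79 to -0.94). Ctsd was also lower in IL-5-indexed cells at 30 min and in silent ones, at -1.64 and -1.95 against pre-stimulation, and these calls held with any 1 cell left out. Of the 7 factors examined at class II promoters 0 and 1 reached 50 CPM over activated and pre-stimulation cells, with 0 called, and of the 3 MARCH ligases 1 and 0. Creb1, a factor that binds many promoters besides, was called in other comparisons. Among IL-13-indexed cells it had 0 reads before stimulation, 155 CPM at 30 min and 219.5 CPM in silent cells, against 94.6 CPM in activated cells, and in the IL-5 index it was at 22.3 CPM before stimulation and 93.5 CPM at 30 min. The call in silent IL-13 cells held with any 1 cell left out, and the other 3 ended without some 1 cell.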

How the data were processed

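Single ILC2 were recovered by the study after live imaging, and 3′ libraries were made from 120 cells, pooled 5 or 6 at a time. The authors aligned reads with TopHat to GRCm38 and counted them with HTSeq, and the deposited files hold raw counts per gene, without molecular identifiers. The submitters' processing notes name mm10 and also GRCh38, with no role given. Of the reads in the rows, 62% were in genes, 28.7% were not unique and are not counted for any gene, and 1.86% were ambiguous, which bears on the near-identical H2 genes. Within each group the counts of its cells were added up and expressed per 1000000 gene reads (CPM). Ratios used 3 reads in place of any lower count, with exact binomial (ratios) or Poisson (levels) 95% intervals. A member was called at 2-fold with a mean of 50 CPM. No test between groups was made. Each alternative changed 1 choice, and the procedure was tested on simulated data. Named with values were members of at least 50 CPM in some group, the main class I and class II genes and, from each pathway list, up to 4 with the largest absolute log2 ratio of activated to pre-stimulation cells, averaged over the indexes, among genes of at least 50 CPM. Creb1, Gbp2, Gbp4, Irf8, Irf9 and Psmb10 were named outside this rule, after their values were seen. The members and lists were chosen with earlier results of these data known. TMM factors came from edgeR 4.0.16 and size factors from DESeq2 1.42.0, and the rest was computed in Python 3.11.15.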

Additional observations from a re-analysis of the deposited data

Results flagged for a closer look

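In 22 sets of values, each a member or class in a group of few enough cells, the gap of the highest or lowest cell to its neighbour was set against the group's range, and 2 values stood apart. Chance alone gives about 1 in 20 independent groups, but these sets share cells and genes. Both values belonged to the same pre-stimulation cell of the IL-5 index, replicate 5, with 214201 gene reads, and H2-Q7 is part of the summed class, so they are 1 observation. The class I heavy chains other than H2-K1 and H2-D1 were at 37.35 CPM there (8 reads), against 737.1 to 2296.1 CPM in the other 4 cells. On a log2(CPM + 1) scale, not on the CPM printed, this was a gap of 0.723 of the range. H2-Q7 was at 9.337 CPM (2 reads), against 472.4 to 972.0 CPM, a gap of 0.841 of the range on a log2(CPM + 1) scale. B2m in that cell was at 13207 CPM, within the range of the others.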

How the results depend on the processing

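The log2 ratio of the class I heavy chains between states depended on the scaling and on single cells, and the cause was not tested. Averaging the cells' own CPM gave -0.163 for 30 min over pre-stimulation, -0.667 for activated over pre-stimulation and -0.559 for activated over silent with the IL-13 index, and 0.615 for 30 min over pre-stimulation and -0.182 for activated over silent with the IL-5 index. Such an average weighs every cell alike. The shallowest IL-5 cell at 30 min held 73 gene reads and the shallowest silent one 2152, and their part in the IL-5 values was not tested. TMM factors gave 0.146 for 30 min over pre-stimulation, -0.533 for activated over pre-stimulation, -0.016 for silent over pre-stimulation and -0.517 for activated over silent with the IL-13 index, and 0.55 for 30 min over pre-stimulation, 0.316 for activated over pre-stimulation, 0.374 for silent over pre-stimulation and -0.059 for activated over silent with the IL-5 index. DESeq2 size factors gave 0.043 for 30 min over pre-stimulation, -0.841 for activated over pre-stimulation, -0.199 for silent over pre-stimulation and -0.642 for activated over silent with the IL-13 index, and -0.078 for activated over pre-stimulation and -0.054 for activated over silent with the IL-5 index. Cells of the first title date alone gave -0.453 for 30 min over pre-stimulation, -1.09 for activated over pre-stimulation, -0.495 for silent over pre-stimulation and -0.595 for activated over silent with the IL-13 index, and -0.015 for 30 min over pre-stimulation, -0.549 for activated over pre-stimulation, -0.611 for silent over pre-stimulation and 0.062 for activated over silent with the IL-5 index. Pre-stimulation cells of both indexes together gave -0.127 for 30 min over pre-stimulation, -0.829 for activated over pre-stimulation and -0.13 for silent over pre-stimulation with the IL-13 index, and 0.238 for 30 min over pre-stimulation, -0.111 for activated over pre-stimulation and 0.041 for silent over pre-stimulation with the IL-5 index. Leaving the cytokine reads out of the total gave -0.681 for activated over pre-stimulation and -0.612 for activated over silent with the IL-13 index, and -0.042 for activated over pre-stimulation and -0.049 for activated over silent with the IL-5 index. With 1 cell left out at a time the ranges were -0.224 to 0.116 for 30 min over pre-stimulation (IL-13), -1.035 to -0.586 for activated over pre-stimulation (IL-13), -0.296 to 0.113 for silent over pre-stimulation (IL-13), -0.964 to -0.473 for activated over silent (IL-13), 0.093 to 0.337 for 30 min over pre-stimulation (IL-5), -0.399 to -0.011 for activated over pre-stimulation (IL-5), -0.208 to 0.16 for silent over pre-stimulation (IL-5) and -0.394 to 0.051 for activated over silent (IL-5). Activated cells of the IL-13 index stayed below pre-stimulation and silent cells under all of these settings, while 30 min and silent over pre-stimulation in that index and the 4 comparisons of the IL-5 index changed sign under some.

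The number of members at least 2-fold apart followed the limits. With a CPM minimum of 10 it was 8 for 30 min over pre-stimulation, 7 for silent over pre-stimulation and 6 for activated over silent with the IL-13 index, and 9 for 30 min over pre-stimulation, 6 for silent over pre-stimulation and 4 for activated over silent with the IL-5 index. With no CPM minimum it was 10 for 30 min over pre-stimulation, 10 for activated over pre-stimulation, 9 for silent over pre-stimulation and 9 for activated over silent with the IL-13 index, and 11 for 30 min over pre-stimulation, 9 for activated over pre-stimulation, 10 for silent over pre-stimulation and 11 for activated over silent with the IL-5 index. With a 1.5-fold limit it was 5 for 30 min over pre-stimulation, 7 for silent over pre-stimulation and 6 for activated over silent with the IL-13 index. With TMM factors it was 3 in place of 6 for activated over pre-stimulation with the IL-13 index, and 6 in place of 4 with the IL-5 index. The class II chains of activated over pre-stimulation cells of the IL-5 index were at 1.316, and at 0.896 to 1.508 with 1 cell left out. Without the single cell that held the 23 H2-Ab1 reads both groups were at 0 and no ratio exists. In 6 other comparisons the class II chains gave no ratio, nor did the first title date for these. Scaling by TMM moved the median of all genes by 0.05 to 0.47. No paired analysis was possible because the replicate numbers only name cells and each group counts as 1 sample, so values within title dates are given without a test. Leaving out each cell with both limits applied again, an alternative chosen after seeing the data, ended 10 of 14 member calls for the IL-13 and 12 of 13 for the IL-5 index. Depth limits all statements on genes read in few cells, where 1 to 3 reads decide whether a cell counts.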
